A study of Mus musculus with 29 samples.

Results

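The leucocyte integrin genes examined here were Itgal, Itgam, Itgax, Itgad, Itgae, Itga4, Itgb2 and Itgb7, and every window of the methylation table that carried 1 of these 8 names was taken. In all, 82 of the 260686 windows were members, of which Itgad held 15, Itgae 14, Itga4 12, Itgal 11, Itgam 10, Itgb2 9, Itgb7 6 and Itgax 5. Lung DNA of 29 mice was profiled by whole genome methylation sequencing (WGMS), a method that converts unmethylated cytosines with enzymes and reads the methylated ones as C. The unit is %DNAm, the percentage of CpG cytosines called methylated, averaged over a window of many neighbouring CpGs. The labels give 4 groups of Balb/c mice, all described by the series as females at 13 weeks of age and all sampled from the lung (RML), which the study's methods describe as the right lower lobe. Dams received fine airborne particulate matter (PM2.5) or saline into the nose before mating, through gestation and until weaning, and the offspring themselves were not dosed. Offspring were then given ovalbumin (OVA), the egg white allergen of this mouse model of allergic airways disease, or saline. Thus Sham mice had saline-treated dams and no OVA (n = 7), Sham-OVA mice had saline-treated dams and OVA (n = 7), PM mice had PM2.5-treated dams and no OVA (n = 7), and PM-OVA mice had PM2.5-treated dams and OVA (n = 8). The methods describe sensitisation of offspring by injection of OVA with an aluminium adjuvant and then challenge by aerosol. Of the controls they state that these inhaled nebulised saline, and it is not clear whether controls were sensitised as well. The OVA contrast therefore covers the aerosol step and may or may not cover the sensitisation. The study describes the sequenced lungs as taken after a lung function test with inhaled methacholine, and its methods describe a saline lavage of the airways right after that test. The labels do not say which offspring shared a dam, so the p-values measure the spread between these mice only.

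Integrins are cell surface receptors built from an alpha and a beta chain, and they let leucocytes hold on to vessel walls, other cells and matrix. Itgb2 encodes the beta2 chain, which pairs with the alpha chains of Itgal, Itgam, Itgax and Itgad, whereas Itgb7 encodes the beta7 chain, which pairs with those of Itga4 and Itgae. The Itga4 chain also pairs with the beta1 chain. These genes are known to be expressed mainly in leucocytes, and eosinophils, lymphocytes and other leucocytes use them to enter allergic lung.

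One library stood apart. The Y chromosome has 1230 windows in the table, and Sham replicate 1 gave values for 1224 of them but the other 28 libraries for only 29 to 46, although the series describes all mice as female. It had a value in all 82 member windows and was kept in its group, and the values without it are given where it matters. Libraries had a value in 258952 to 260135 windows, 0 pairs of libraries were identical, and all 82 member windows had a value in all 29 libraries. The table has no read counts or coverage, so the depth behind a single value is unknown and the precision rests on the number of libraries. Because whole lung was sampled, a change in the share of a cell type and a change of methylation within cells cannot be told apart.

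The sequences below show what the windows look like around the results that follow. They are from the RefSeq sequence of GRCm38.p6, the build of the table, with each CpG in capitals, since only CpG cytosines were scored. The first set is the 250 bases upstream of the gene start of Itga4, Itgam, Itgax and Itgb7, the 4 members matched by symbol in the RefSeq promoter table of 32851 entries, and each lies in the first window of its gene. They lie at chr2:79255176-79255425, chr7:128062390-128062639, chr7:128129300-128129549 (all on the plus strand) and chr15:102231936-102232185 (minus strand).
Itga4: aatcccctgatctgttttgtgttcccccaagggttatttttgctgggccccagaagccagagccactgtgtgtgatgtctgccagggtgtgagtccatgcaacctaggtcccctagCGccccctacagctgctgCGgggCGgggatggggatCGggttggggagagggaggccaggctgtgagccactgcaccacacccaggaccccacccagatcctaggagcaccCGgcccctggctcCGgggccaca
Itgam: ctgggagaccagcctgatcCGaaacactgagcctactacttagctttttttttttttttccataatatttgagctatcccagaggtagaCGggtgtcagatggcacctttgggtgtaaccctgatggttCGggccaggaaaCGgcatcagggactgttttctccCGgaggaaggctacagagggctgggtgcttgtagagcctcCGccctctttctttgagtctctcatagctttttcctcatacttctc
Itgax: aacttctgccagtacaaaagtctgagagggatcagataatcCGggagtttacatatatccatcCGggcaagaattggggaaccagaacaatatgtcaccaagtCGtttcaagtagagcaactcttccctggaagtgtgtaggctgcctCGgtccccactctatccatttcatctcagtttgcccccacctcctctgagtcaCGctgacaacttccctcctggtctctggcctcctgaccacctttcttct
Itgb7: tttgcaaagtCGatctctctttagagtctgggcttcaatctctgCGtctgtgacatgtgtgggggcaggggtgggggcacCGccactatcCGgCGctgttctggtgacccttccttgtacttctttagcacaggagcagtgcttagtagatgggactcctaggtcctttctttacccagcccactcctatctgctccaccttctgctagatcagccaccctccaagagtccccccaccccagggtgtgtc

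These stretches hold 6, 6, 5 and 5 CpGs in the order printed, against a median of 6 over all promoters (quartiles 2 and 16). On either strand of the 250 bases upstream and 50 downstream, the letters TGTGGT, the core recognised by RUNX factors, occurred in Itga4 at position -60 and in Itgax at position 14, and were present in 16.8% of all promoters. The letters GAGGAAGT, a form of the PU.1 site, occurred in Itgb7 at position 1 and in 3.2% of all promoters. The 2 motifs share no site, and a match describes the letters only.

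The second set is the 300-base stretch with the most CpGs outside exons in 4 windows that the results turn on. Itgb2 window 3 (chr10:77536860-77537159, plus strand) and Itga4 window 3 (chr2:79258818-79259117, plus strand) lost methylation after OVA, whereas in Itgb7 window 3 (chr15:102224965-102225264, minus strand) methylation was low in every library (at most 8.36%) and window 4 of that gene (chr15:102222960-102223259, minus strand) gained methylation. Windows are numbered from the 5′ end of each gene.
Itgb2 window 3: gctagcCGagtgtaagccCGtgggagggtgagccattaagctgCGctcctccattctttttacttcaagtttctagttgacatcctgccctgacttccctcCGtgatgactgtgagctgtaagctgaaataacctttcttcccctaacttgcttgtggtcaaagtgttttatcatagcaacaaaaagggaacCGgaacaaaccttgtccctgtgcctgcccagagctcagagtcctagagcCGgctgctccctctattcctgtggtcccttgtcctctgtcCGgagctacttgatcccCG
Itga4 window 3: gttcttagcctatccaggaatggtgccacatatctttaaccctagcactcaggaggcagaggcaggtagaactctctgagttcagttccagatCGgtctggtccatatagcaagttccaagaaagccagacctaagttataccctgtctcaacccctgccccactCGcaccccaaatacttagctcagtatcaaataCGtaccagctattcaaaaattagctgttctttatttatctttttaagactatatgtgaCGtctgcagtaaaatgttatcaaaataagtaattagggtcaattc
Itgb7 window 3: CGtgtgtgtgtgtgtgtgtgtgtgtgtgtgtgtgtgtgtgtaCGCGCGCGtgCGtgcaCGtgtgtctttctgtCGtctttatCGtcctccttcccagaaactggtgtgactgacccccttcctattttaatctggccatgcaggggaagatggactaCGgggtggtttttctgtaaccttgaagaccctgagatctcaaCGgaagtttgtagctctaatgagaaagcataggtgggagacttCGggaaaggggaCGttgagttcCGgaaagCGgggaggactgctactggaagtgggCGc
Itgb7 window 4: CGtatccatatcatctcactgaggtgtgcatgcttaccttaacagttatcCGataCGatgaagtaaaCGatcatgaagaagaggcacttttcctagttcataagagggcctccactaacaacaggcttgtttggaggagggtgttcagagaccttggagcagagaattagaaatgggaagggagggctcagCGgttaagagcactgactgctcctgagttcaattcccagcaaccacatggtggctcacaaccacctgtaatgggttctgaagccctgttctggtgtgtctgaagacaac

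The stretches hold 8, 4, 16 and 5 CpGs, so that the Itga4 stretch was the poorest in CpGs of the 4 and the Itgb7 window 3 stretch the richest.

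Member windows were 481 to 10844 bp long (median 4563 bp) and held 49 to 64 CpG dinucleotides. Of the 82, 69 held exonic bases by GENCODE M21 and 23 overlapped another annotated gene, including all 10 Itgam windows, which overlap the read-through gene Gm49368. In Sham mice 77 windows had a mean of 50.6 to 90.2%, and the other 5 were under 50%. Low values were found at the start of Itga4 (window 2, 20.6%), in Itgb7 window 3 (2.84%) and in Itgae windows 10 to 12 (42.2, 0.333 and 27.7%), which overlap Haspin, a kinase gene nested within Itgae. The lowest, Itgae window 11, was also the densest in CpGs (104 per kb). Averaged over the windows of a gene, Sham mice had the highest level in Itgax (80.2% ± 0.41, SD, n = 7), followed by Itgam (78.4%), Itgb2 (76.3%), Itga4 (75.8%), Itgad (75.2%), Itgal (71.3%), Itgae (65.8%) and Itgb7 (59.6%). Itgb2, Itga4 and Itgad overlapped between libraries, whereas the other neighbours in this order did not. Such gene means hide larger changes in single windows, which for Itgal went in the opposite direction. For Itgb2 the mean went from 76.3% to 73.4% after OVA in Sham and for Itgal from 71.3% to 73.3%, whereas single windows of both genes differed by over 10 points.

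The first question was whether OVA challenge altered methylation of these genes. Differences are percentage points of the group means, OVA minus no OVA, and a window was called changed at an adjusted p under 0.05 (limma on log2 ratios of methylated to unmethylated signal, Benjamini-Hochberg over 259167 tested windows). A differentially methylated region (DMR) had in addition a difference of at least 10 points. In Sham offspring 18 of 82 member windows (22.0%) fell and 19 (23.2%) rose after OVA, against 22.3% of all tested windows that fell and 13.3% that rose. In PM offspring 20 (24.4%) fell and 15 (18.3%) rose, against 34.8% and 9.26% of all tested windows. The share that fell was therefore near or under that of all windows, and the share that rose was above it. The median difference over members was 0.289 points in Sham and 0.0189 in PM, whereas over all tested windows it was -0.414 and -1.03. The split depends on this overall shift. When each library was centred on its own median, 16 fell and 23 rose in Sham, and 16 fell and 26 rose in PM, with 17.8 and 18.3% of all windows in Sham and 18.7 and 18.9% in PM. All DMRs among the members were in the direction of loss. In each arm 4 of 82 (4.88%) were DMRs with lower methylation, against 0.296% of all windows in Sham and 0.321% in PM, and 0 were DMRs with higher methylation, against 0.479 and 0.263%. No test was run on these shares.

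The first window named for each gene fell in 8 of 8 genes in both arms, with median differences of -6.52 points in Sham and -6.41 in PM. Of these, 6 hold the annotated start of their gene, and all 6 fell in both arms, against 19.3% (lower) and 9.41% (higher) in Sham and 31.5% and 6.55% in PM of the 33549 tested windows that hold the start of their own gene. For Itgad and Itgae, the window over the start carries the name of another gene, so that the nearest window was taken, which begins 1824 and 1937 bp inside the gene. The windows over these 2 starts did not fall, and their values are given with each gene. Of the 74 later windows, 10 fell (13.5%) and 19 rose (25.7%) in Sham, against 22.3 and 13.3% of all tested windows, and 12 fell (16.2%) and 15 rose (20.3%) in PM, against 34.8 and 9.26%. The mean of the 8 first windows ranged from 67.16 to 68.76% in the 7 Sham libraries (median 67.86) and from 59.38 to 62.4% in the 7 Sham-OVA libraries (median 60.71). It ranged from 67.5 to 69.04% in PM (median 67.83) and from 58.89 to 62.36% in PM-OVA (median 60.9). Every OVA library lay below every unchallenged one. Taken singly, the libraries of the 2 groups did not overlap, with OVA lower, in 7 of the 8 first windows in each arm. For the 6 that hold the gene start the count was 5 in each arm, against 4.14% in Sham and 8.05% in PM of all tested windows that hold the start of their own gene. Over all 82 members, 13 windows were separate with OVA lower and 5 with OVA higher in Sham, and 14 and 3 in PM, against 5.43 and 3.15% of all tested windows in Sham and 10.3 and 1.65% in PM. Among the 13, Itgae window 10 was counted on a gap that rounds to 0.0 points. The mean of the later windows spanned 72.63 to 74.57% over all 4 groups, and the OVA and unchallenged libraries overlapped.

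**Figure D1:**
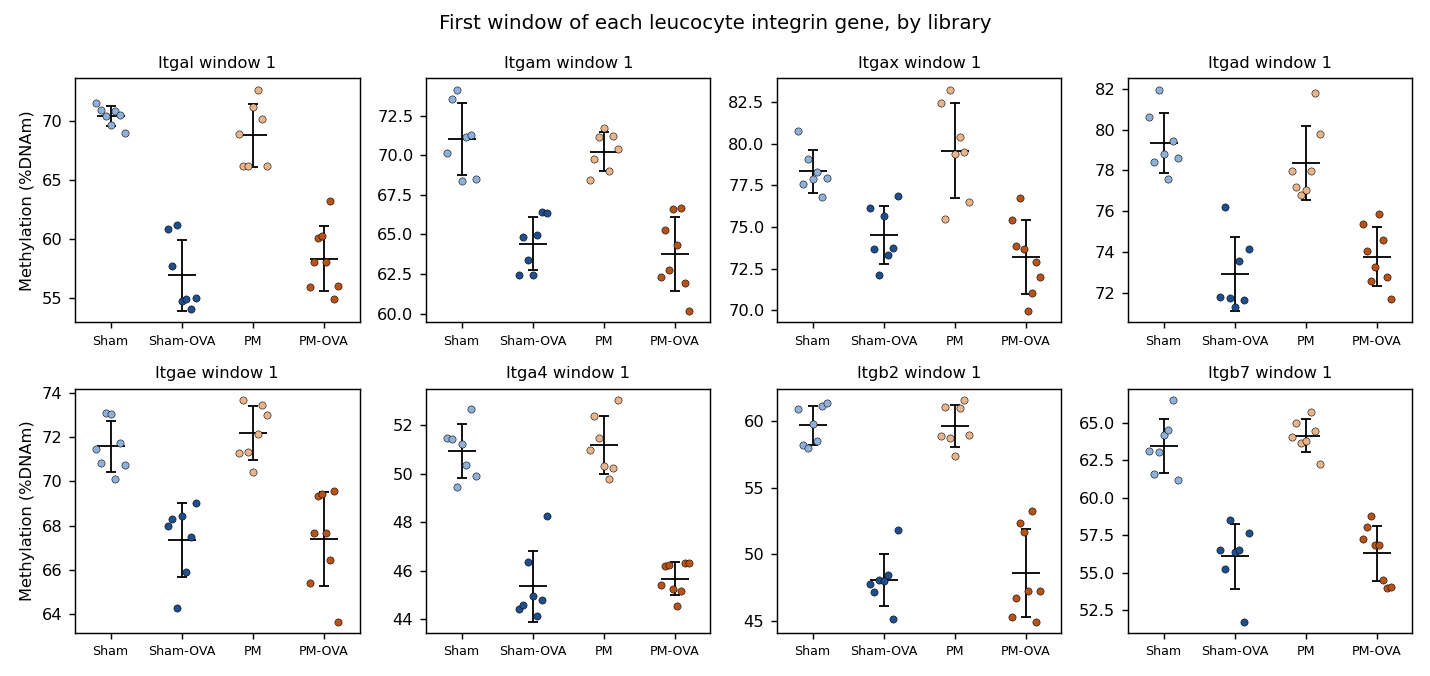
Methylation (%DNAm, y axis) of the first window of each gene in every library, by group (x axis; points in a group are libraries in replicate order, bars are mean ± SD, and the y axes do not start at 0). OVA libraries lay below unchallenged ones without overlap in 7 of the 8 genes in each arm, the exception in both being Itgax. Of all tested windows, 5.43% in Sham and 10.3% in PM were separate in this way. The windows shown for Itgad and Itgae lie inside the gene and do not hold its start.

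Among the partners of the beta2 chain, Itgal changed most. It encodes the alpha chain of LFA-1, the receptor by which lymphocytes bind ICAMs. Itgal window 1 (chr7:127294341-127298605) spans the gene start, with 1919 bp of the 2000 bp upstream and 552 exonic bp. Its methylation ranged from 69.0 to 71.54% in Sham (median 70.47) and from 54.03 to 61.18% in Sham-OVA (median 55.04), and from 66.16 to 72.65% in PM (median 68.85) and 54.95 to 63.19% in PM-OVA (median 58.09). The groups did not overlap in either arm, and the gap between them was 7.82 points in Sham and 2.97 in PM. In Sham the mean fell from 70.4% ± 0.84 (SD, n = 7) to 56.9% ± 3.02 (SD, n = 7), a difference of -13.5 points (limma adjusted p = 1.66e-08). In PM it fell from 68.8% ± 2.68 (SD, n = 7) to 58.3% ± 2.76 (SD, n = 8), a difference of -10.5 points (limma adjusted p = 2.41e-07), or -9.47 points with the libraries centred, which is short of the DMR limit. The rest of the gene went the other way. Of the 10 later Itgal windows, 7 rose in Sham and 8 in PM, and 0 fell in either arm. Over all tested windows, 13.3% rose and 22.3% fell in Sham, and 9.26% rose and 34.8% fell in PM. The rise was greatest in the middle of the gene. In window 6, picked here after its values were seen, Sham mice had 64.1% ± 1.45 (SD, n = 7), Sham-OVA mice 70.6% ± 2.28 (SD, n = 7), PM mice 65.0% ± 0.95 (SD, n = 7) and PM-OVA mice 70.7% ± 2.06 (SD, n = 8), with differences of 6.52 and 5.71 points (limma adjusted p = 1.03e-05 and 2.37e-05) and no overlap between groups. The last Itgal window differed by 0.252 and 0.11 points (limma adjusted p = 0.832 and 0.927).

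Itgam, Itgax and Itgad lie next to each other on the same chromosome as Itgal and showed smaller losses in their first windows. Itgam encodes the alpha chain of Mac-1, a myeloid receptor for complement and fibrinogen. Itgam window 1 (chr7:128062169-128070296) ranged from 68.34 to 74.14% in Sham (median 71.13), 62.44 to 66.4% in Sham-OVA (median 64.81), 68.46 to 71.74% in PM (median 70.36) and 60.16 to 66.69% in PM-OVA (median 63.56). It changed by -6.59 points in Sham and -6.47 in PM (limma adjusted p = 1.66e-05 and 1.23e-05), without overlap. Of the other 9 Itgam windows, 3 rose in Sham and 2 in PM, and 0 fell. The shares of all tested windows were 13.3 and 9.26% that rose and 22.3 and 34.8% that fell. Itgax encodes the alpha chain known as CD11c, a marker of dendritic cells and alveolar macrophages. Its window 1 (chr7:128128669-128132832) ranged from 76.81 to 80.79% in Sham (median 77.93), 72.14 to 76.89% in Sham-OVA (median 73.76), 75.47 to 83.25% in PM (median 79.5) and 69.96 to 76.73% in PM-OVA (median 73.31), so that the groups overlapped in both arms. The differences were -3.82 points (limma adjusted p = 0.0088) in Sham and -6.36 points (limma adjusted p = 2.72e-05) in PM, and the test of the difference between arms gave an unadjusted p of 0.1 (adjusted 0.722, limma). Without Sham replicate 1 the difference in Sham was -3.41 points (limma adjusted p = 0.0243). Itgax window 5, at the 3′ end, rose by 3.21 and 3.3 points (limma adjusted p = 0.0102 and 0.00487).

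Itgad encodes the alphaD chain, which is found on macrophages and on eosinophils. Its window 1 (chr7:128156200-128161118), intronic and with 0 exonic bp, ranged from 77.58 to 81.97% in Sham (median 78.83), 71.31 to 76.23% in Sham-OVA (median 71.78), 76.81 to 81.81% in PM (median 77.96) and 71.7 to 75.84% in PM-OVA (median 73.66). The differences were -6.44 and -4.59 points (limma adjusted p = 3.35e-06 and 0.000113), and the groups did not overlap. The window just upstream, which holds the Itgad start but is named for Gm17831, moved in the opposite direction. It rose by 5.99 points in Sham and 4.45 in PM (limma adjusted p = 1.85e-05 and 0.000409). Among the other 14 Itgad windows, 2 fell and 2 rose in Sham, against 22.3 and 13.3% of all tested windows. In PM 1 fell and 0 rose, against 34.8 and 9.26%. Window 5 fell in both arms, with differences of -4.42 and -5.15 points (limma adjusted p = 0.000983 and 8.36e-05).

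**Figure D2:**
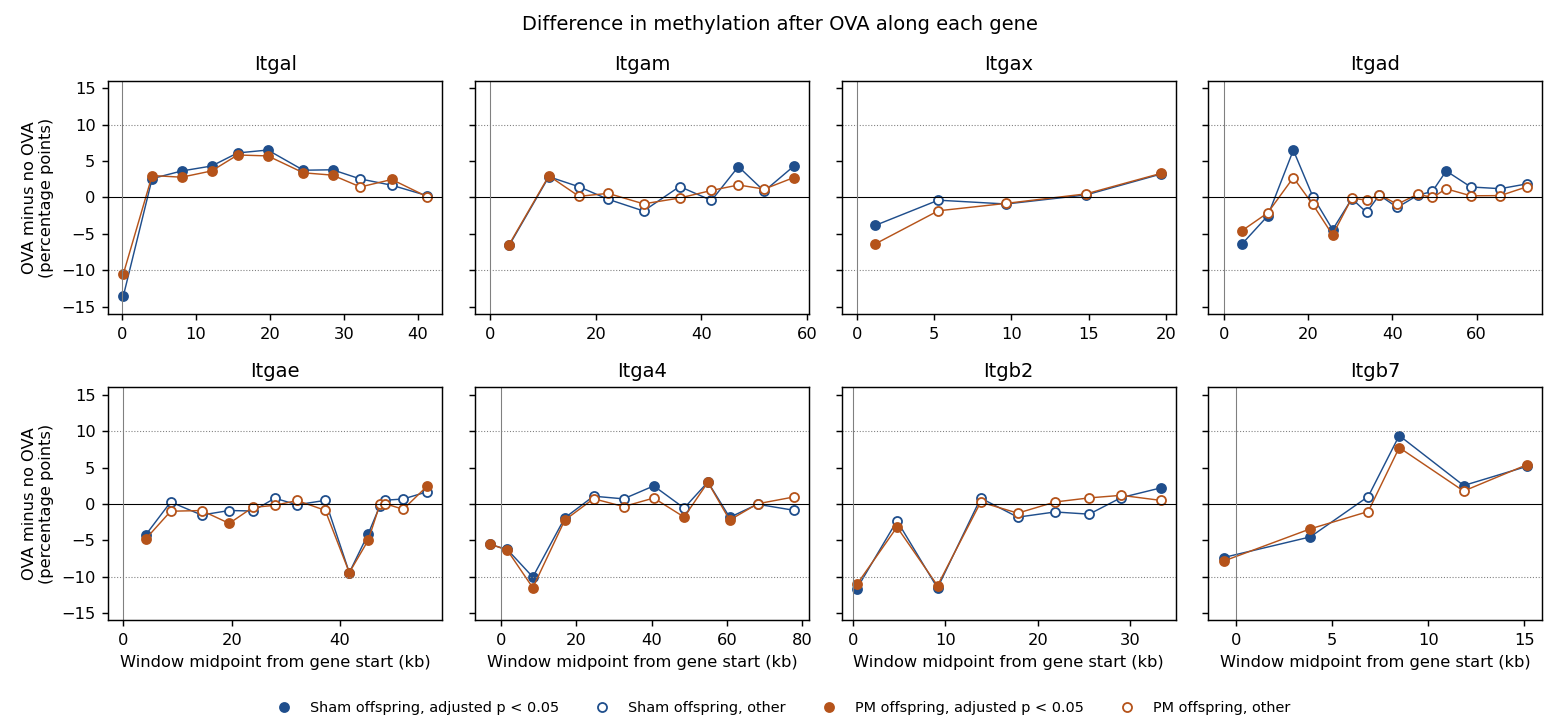
Difference in methylation between OVA and unchallenged offspring (y axis, percentage points of group means) for each window, plotted at the distance of its midpoint from the gene start (x axis, kb, in the direction of transcription), for Sham (blue) and PM (orange) offspring. Filled points passed an adjusted p of 0.05, lines join neighbouring windows and dotted lines mark 10 points. The first point of every gene lies below 0 in both arms, and Itgal is above 0 from its second window on.

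Itgb2, the shared beta2 chain that these alpha chains need to reach the cell surface, held 2 of the 4 DMRs. Itgb2 window 1 (chr10:77528131-77533263) spans the gene start, the whole 2000 bp upstream and 208 bp of untranslated exon. It ranged from 57.98 to 61.39% in Sham (median 59.8), 45.16 to 51.84% in Sham-OVA (median 48.02), 57.37 to 61.58% in PM (median 58.93) and 44.93 to 53.24% in PM-OVA (median 47.26). Every OVA library was lower than every unchallenged one, with gaps of 6.14 and 4.14 points. The differences were -11.6 points in Sham (limma adjusted p = 5.1e-08) and -11.1 points in PM (limma adjusted p = 3.86e-08). Itgb2 window 3 (chr10:77536798-77542038), whose CpG-richest stretch is printed above, lies within the gene, held 61 exonic bp and fell as much. It ranged from 68.32 to 75.58% in Sham (median 70.44), 57.92 to 62.74% in Sham-OVA (median 59.3), 65.13 to 73.93% in PM (median 70.97) and 55.91 to 62.4% in PM-OVA (median 60.06). Again the groups were separate, with gaps of 5.58 and 2.73 points. The differences were -11.6 points in Sham and -11.2 points in PM (limma adjusted p = 2.76e-07 and 1.99e-07). Window 2, between them and with 0 exonic bp, changed less, by -2.31 points in Sham (limma adjusted p = 0.0901) and -3.18 in PM (limma adjusted p = 0.0131). From window 4 on, 1 of 6 Itgb2 windows rose and 0 fell in Sham, against 13.3 and 22.3% of all tested windows. In PM 0 of them passed the threshold, against 9.26% that rose and 34.8% that fell.

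Itga4 encodes the alpha4 chain, which binds VCAM1 and lets lymphocytes and eosinophils leave the blood. Loss extended over its first 4 windows in both arms, although it was small in window 4. That window changed by -1.91 points in Sham and -2.22 in PM (limma adjusted p = 0.0444 and 0.0158), and its groups overlapped in both arms. Itga4 window 1 (chr2:79249732-79255551) holds the 2000 bp upstream and the gene start, and its last bases include the printed upstream stretch. It ranged from 49.45 to 52.69% in Sham (median 51.24), 44.12 to 48.26% in Sham-OVA (median 44.81), 49.79 to 53.03% in PM (median 50.98) and 44.55 to 46.31% in PM-OVA (median 45.8), and it fell without overlap, with differences of -5.57 and -5.51 points (limma adjusted p = 1.23e-06 and 5.86e-07). Window 2, picked here after its values were seen, follows the start and holds 2301 exonic bp. It was low throughout and went lower, with 20.6% ± 2.71 (SD, n = 7) in Sham mice, 14.3% ± 1.94 (SD, n = 7) in Sham-OVA mice, 20.4% ± 1.58 (SD, n = 7) in PM mice and 14.1% ± 2.19 (SD, n = 8) in PM-OVA mice (limma adjusted p = 8.18e-05 and 2.39e-05). Window 3 (chr2:79258818-79269092), with 0 exonic bp, was the Itga4 DMR, and its CpGs are sparse (4.77 per kb over the whole window, whereas the stretch printed for it is its richest). It ranged from 68.96 to 74.56% in Sham (median 72.86), 60.4 to 67.24% in Sham-OVA (median 61.69), 71.34 to 75.72% in PM (median 72.78) and 59.3 to 64.34% in PM-OVA (median 60.93). The groups did not overlap, although Sham-OVA replicate 7 lay 1.72 points from the lowest Sham library. The differences were -10.0 points in Sham (limma adjusted p = 2.32e-08) and -11.5 points in PM (limma adjusted p = 1.24e-09). In Sham this was just over the DMR limit. The difference was -9.96 points without Sham replicate 1 and -9.64 points with the libraries centred, and it passed the threshold on p in both. Of the other 8 Itga4 windows, 1 fell and 2 rose in Sham, against 22.3 and 13.3% of all tested windows. In PM 2 fell and 1 rose, against 34.8 and 9.26%. Window 9 rose by 3.01 and 2.98 points (limma adjusted p = 0.00545 and 0.00439), whereas window 10 fell in both arms, with differences of -1.84 and -2.22 points (limma adjusted p = 0.00256 and 0.000271).

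Itgae encodes the alphaE chain (CD103), which holds T cells and dendritic cells to E-cadherin on epithelium. Its window 1 (chr11:73092520-73096915, 0 exonic bp) ranged from 70.12 to 73.1% in Sham (median 71.48), 64.29 to 69.02% in Sham-OVA (median 67.98), 70.44 to 73.67% in PM (median 72.15) and 63.66 to 69.55% in PM-OVA (median 67.67), with differences of -4.24 and -4.79 points (limma adjusted p = 0.000434 and 5.08e-05) and no overlap. The window over the Itgae start, named for Ncbp3, differed by 1.13 and 1.05 points (limma adjusted p = 0.304 and 0.3). The greatest loss in Itgae lay far from the start. Window 9 (chr11:73130747-73133919) ranged from 77.25 to 80.7% in Sham (median 80.26), 67.15 to 74.75% in Sham-OVA (median 69.52), 77.15 to 80.75% in PM (median 78.5) and 67.9 to 71.41% in PM-OVA (median 69.12). The differences were -9.44 and -9.43 points (limma adjusted p = 1.11e-08 and 4.89e-09), just short of a DMR, and no libraries overlapped. Its neighbour, window 10, which overlaps Haspin, fell as well, from 42.2 to 38.1% in Sham and from 42.4 to 37.4% in PM (limma adjusted p = 0.000157 and 6.34e-06). The CpG-dense window 11, which also overlaps Haspin, was listed at 0 to 2.15% in Sham and at most 0.22% in the other groups, and windows 11 and 12 did not pass the threshold in either arm.

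Itgb7, the beta7 chain that pairs with alpha4 to bind the gut addressin MAdCAM and with alphaE to bind E-cadherin, lost methylation at its 5′ end and gained it towards its 3′ end. Itgb7 window 1 (chr15:102230539-102234659) holds the gene start and the printed upstream stretch. It ranged from 61.2 to 66.49% in Sham (median 63.07), 51.72 to 58.49% in Sham-OVA (median 56.52), 62.21 to 65.74% in PM (median 64.06) and 53.98 to 58.76% in PM-OVA (median 56.84). The groups did not overlap, and the differences were -7.37 and -7.86 points (limma adjusted p = 1.89e-06 and 2.88e-07). Window 2 fell less, with differences of -4.53 and -3.42 points (limma adjusted p = 4.88e-05 and 0.000933). Window 3 (chr15:102224563-102225579), a CpG-dense stretch inside the gene (49.2 CpGs per kb, shown above), was low, with 1.08 to 4.85% in Sham and 2.15 to 8.36% in Sham-OVA, and did not pass the threshold in either arm (limma adjusted p = 0.288 and 0.232). On its other side methylation rose. Window 4 (chr15:102222365-102224550) ranged from 47.81 to 54.22% in Sham (median 50.03), 57.83 to 62.93% in Sham-OVA (median 59.5), 47.39 to 54.99% in PM (median 52.89) and 55.33 to 61.69% in PM-OVA (median 60.73), which separates the groups in both arms. The differences of 9.4 and 7.74 points (limma adjusted p = 2.46e-06 and 1.45e-05) made it the greatest rise among the 82 windows in both arms, just under the DMR limit in Sham. Window 6 rose by 5.17 and 5.41 points (limma adjusted p = 0.000203 and 4.38e-05).

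**Figure D3:**
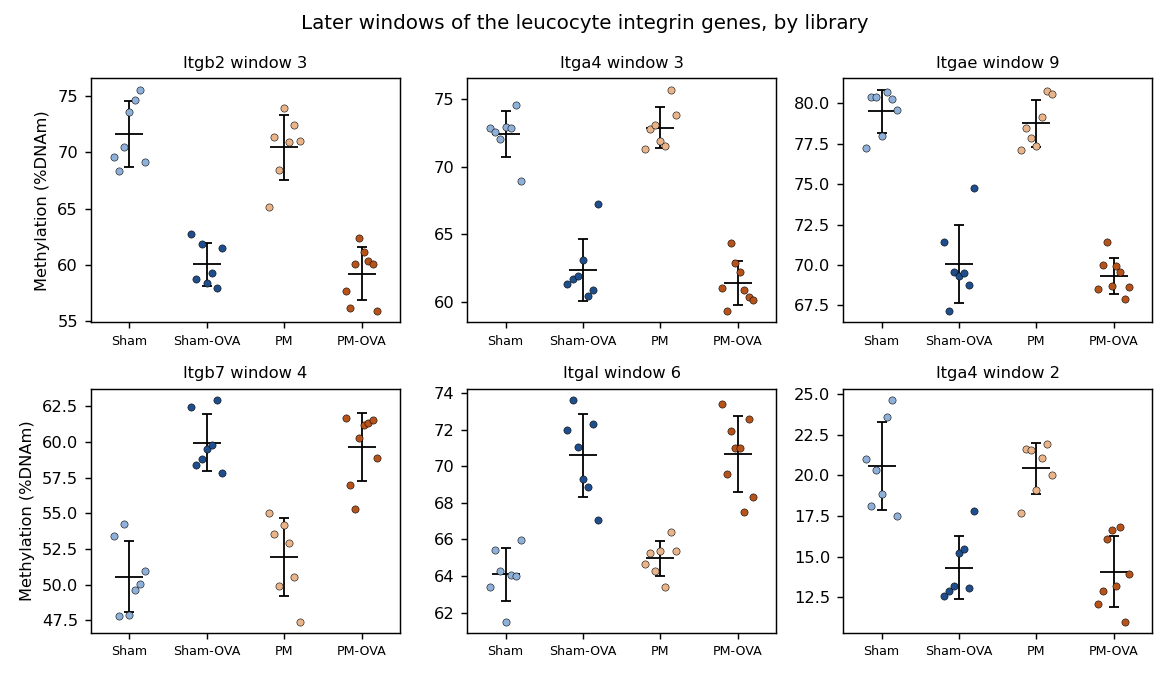
Methylation (%DNAm, y axis) of 6 later windows in every library, by group (x axis; points in a group are libraries in replicate order, bars are mean ± SD, and the y axes do not start at 0). Itgb2 window 3, Itga4 windows 2 and 3 and Itgae window 9 were lower after OVA, whereas Itgb7 window 4 and Itgal window 6 were higher.

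The second question was whether exposure of the dam altered these genes or their response to OVA. Of the 82 windows, 0 passed an adjusted p of 0.05 (limma) for PM against Sham, for PM-OVA against Sham-OVA or for the interaction (how far the response to OVA of PM offspring departs from that of Sham offspring), as did 0.0% of all tested windows in each of the 3 comparisons. At an unadjusted p under 0.05 there were 3, 1 and 2 member windows, and 15003, 15450 and 19166 of all tested windows. The smallest p for PM against Sham was that of Itgam window 8 (chr7:128106886-128112412), where Sham mice had 80.9% ± 1.36 (SD, n = 7) and PM mice 82.8% ± 1.36 (SD, n = 7) (limma unadjusted p = 0.0249). It also had the smallest p for the interaction, -2.53 points (limma unadjusted p = 0.0267, adjusted 0.642), since it rose by 4.24 points after OVA in Sham (limma adjusted p = 8.86e-05) and differed by 1.72 points in PM (limma adjusted p = 0.0521). For PM-OVA against Sham-OVA it was Itgam window 9, at 86.4% ± 0.99 (SD, n = 8) and 85.3% ± 0.49 (SD, n = 7) (limma unadjusted p = 0.0386). The arms share no libraries. Of the 82 windows, 17 fell in both arms, 13 rose in both, 0 passed in opposite directions and 40 passed in neither, while 1 fell and 6 rose in Sham alone and 3 fell and 2 rose in PM alone. Agreement between arms was not counted over all tested windows, of which 22.3% fell and 13.3% rose in Sham and 34.8 and 9.26% in PM. It is therefore not shown to be particular to these genes. A window that passed in 1 arm only was not shown to differ between the arms, since 0 interactions passed. For the 4 DMRs the interaction was 3.02 points for Itgal window 1, 0.576 and 0.328 for Itgb2 windows 1 and 3, and -1.48 for Itga4 window 3 (limma unadjusted p = 0.103, 0.737, 0.792 and 0.295).

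**Figure D4:**
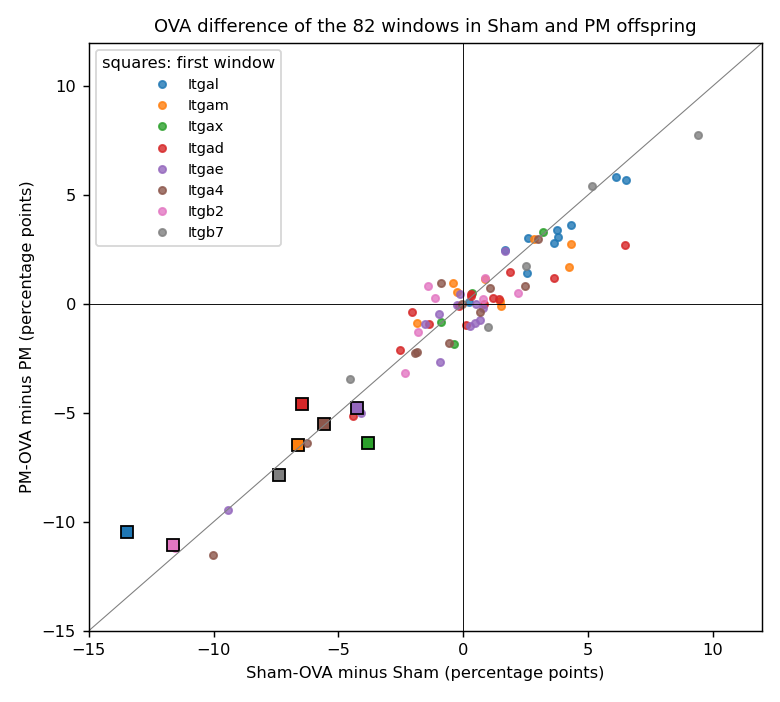
Difference after OVA in Sham (x axis) and in PM offspring (y axis), in percentage points, for the 82 windows, coloured by gene, with squares for the first window of each gene and the line of equality in grey. All 8 squares lie below 0 on both axes, and Itgb7 window 4, at 9.4 and 7.74 points, is the point farthest to the upper right.

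Windows that lost methylation were also compared within groups. Over the 29 libraries, the deviations from the group mean of the 8 first windows and of Itga4 window 3 and Itgb2 window 3 gave 45 pairs with Pearson's r from -0.302 to 0.509 (median 0.171), and 36 were above 0. The highest was between Itga4 windows 1 and 3. These windows share their libraries and their depth, and r is given as a description. The windows of other genes whose deviations were most like those of Itgal window 1 were in Chd7, Usp34, Slc8a1, Dennd4c and Gm29509, with r of 0.738, 0.704, 0.698, 0.691 and 0.689 over the 29 libraries. They are the highest of all windows compared, so high values are picked by construction and no chance level was worked out. Those in Usp34 and Dennd4c had group means of at most 0.298%, close to the floor of the scale, and that in Chd7 had 96.2 to 97.1%, near its top. The windows in Chd7, Usp34 and Dennd4c did not pass the threshold for OVA in either arm. Those in Slc8a1 and Gm29509 fell in both, as did 22.3% of all tested windows in Sham and 34.8% in PM.

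Genes that work with these integrins were described from lists, whose counts are to be read against the 22.3% of all tested windows that fell and 13.3% that rose in Sham, and 34.8 and 9.26% in PM. DMRs made up 0.296% (lower) and 0.479% (higher) of all tested windows in Sham, and 0.321 and 0.263% in PM. Ligands (14 of 15 genes with windows, 105 windows) had 18 windows that fell (17.1%) and 20 that rose (19.0%) in Sham, below and above these shares, and 37 (35.2%) and 13 (12.4%) in PM, with 0 DMRs lower and 1 higher in each arm. For windows over a gene start the shares are 19.3 and 9.41% in Sham and 31.5 and 6.55% in PM. Of the 11 such windows of the ligands, 2 fell and 1 rose in each arm. Their most changed window was in F11r, which encodes the junctional adhesion molecule bound by the Itgal product, and it rose by 12.5 and 10.2 points (limma adjusted p = 4.12e-06 and 1.84e-05). Next was Icam2, an endothelial ligand of LFA-1, which rose by 6.69 and 7.29 points (limma adjusted p = 0.00261 and 0.000624). Proteins that activate integrins from inside the cell or signal downstream of them (22 genes, 399 windows) had 106 that fell (26.6%) and 91 that rose (22.8%) in Sham, and 140 (35.1%) and 78 (19.5%) in PM, with 8 DMRs lower and 3 higher in Sham and 7 and 2 in PM. Of their 19 windows over a gene start, 7 fell and 1 rose in Sham and 8 fell and 1 rose in PM. The largest were a window of Fermt3, whose product kindlin-3 binds beta chain tails in blood cells, with 62.2% ± 3.37 (SD, n = 7) for Sham mice against 44.9% ± 2.73 (SD, n = 7) for Sham-OVA mice, and a window of Rassf5, a partner of Rap1, with 67.8% ± 1.93 (SD, n = 7) against 50.9% ± 4.63 (SD, n = 7). In Sham the differences were -17.3 and -16.9 points (limma adjusted p = 1.2e-08 and 1.48e-08), and in PM they were -17.9 and -17.2 points (limma adjusted p = 2.73e-09 and 3.84e-09). Other integrin chains (18 genes, 370 windows), which are mostly not restricted to leucocytes, had 92 windows that fell (24.9%) and 63 that rose (17.0%) in Sham, and 139 (37.6%) and 50 (13.5%) in PM, with 0 DMRs lower in either arm and 2 higher in Sham and 1 in PM. Of their 16 windows over a gene start, 1 fell and 4 rose in Sham and 2 fell and 4 rose in PM. A window of the platelet chain Itga2b rose by 13.7 and 9.51 points, and 1 of the collagen receptor chain Itga1 by 11.6 and 10.6 (limma adjusted p of at most 0.000381). Transcription factors known to act on leucocyte integrin genes (7 of 8 genes with windows, 122 windows) had 25 that fell (20.5%) and 45 that rose (36.9%) in Sham, and 24 (19.7%) and 40 (32.8%) in PM, with 4 DMRs lower and 12 higher in Sham and 5 and 10 in PM. Of their 4 windows over a gene start, 2 fell and 0 rose in each arm. The most changed were a window of Runx1, with -22.5 and -19.3 points, and 1 of Runx3, with 18.1 and 14.8 points (limma adjusted p of at most 1.38e-05).

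Windows of cell type marker genes were set beside the same shares over all windows, and their part in the integrin results was not tested. Of the 16 windows of 5 eosinophil markers, 9 fell (56.2%) and 0 rose in Sham and 10 (62.5%) and 0 in PM. Their mean ranged from 68.6 to 70.7% in Sham and 65.5 to 67.6% in Sham-OVA, and from 69.3 to 71.4% in PM and 65.5 to 66.9% in PM-OVA, without overlap. Of 42 windows of 6 pan-leucocyte markers, 18 fell (42.9%) and 16 rose (38.1%) in Sham, and 21 and 13 (31.0%) in PM. Their mean ranged from 69.0 to 70.9% in Sham against 67.3 to 68.9% in Sham-OVA, and from 70.2 to 71.1% against 67.6 to 68.2% in PM. In Ptprc, which encodes CD45, 1 window changed by -19.1 and -16.5 points (limma adjusted p = 1.52e-10 and 5.02e-10), a loss beyond that of any integrin window. So did a window of Laptm5 in the same list (-18.5 and -17.5) and of the myeloid marker Spi1 (-15.8 and -16.8). The endothelial list held such a window too, in Pecam1 (-18.0 and -15.9), whereas a window of Cdh5 in that list rose by 11.1 and 9.59 points (limma adjusted p of at most 2.65e-05 for all of these). T cell markers (35 windows) had 12 windows that fell (34.3%) and 6 that rose (17.1%) in Sham and 13 (37.1%) and 4 (11.4%) in PM. B cell markers (68 windows) had 17 and 18 (26.5%) in Sham and 22 (32.4%) and 15 (22.1%) in PM, and myeloid markers (47 windows) 16 (34.0%) and 4 (8.51%) in Sham and 19 (40.4%) and 3 (6.38%) in PM. In the order Sham, Sham-OVA, PM and PM-OVA, the myeloid mean ranged from 71.8 to 72.7%, 69.7 to 72.2%, 71.9 to 72.8% and 69.6 to 70.8%, that of T cell markers from 66.5 to 68.1%, 65.2 to 66.4%, 67.1 to 68.5% and 65.1 to 66.5%, and that of B cell markers from 63.1 to 64.4%, 62.3 to 64.2%, 63.7 to 64.8% and 62.0 to 63.5%. Alveolar epithelial markers (40 windows) had 0 that fell and 16 that rose (40.0%) in Sham and 3 (7.5%) and 11 (27.5%) in PM, and their mean ranged, in the same order, from 63.1 to 65.2%, 65.0 to 67.3%, 63.9 to 65.3% and 64.7 to 66.3%. For endothelium (109 windows) the counts were 14 (12.8%) and 36 (33.0%) in Sham and 32 (29.4%) and 34 (31.2%) in PM. Mesenchyme (57 windows), with 17 (29.8%) and 13 (22.8%) in Sham and 19 (33.3%) and 9 (15.8%) in PM, and airway epithelium (33 windows), with 4 (12.1%) and 5 (15.2%) in Sham and 6 (18.2%) and 2 (6.06%) in PM, had means that overlapped between groups. Their means ranged, in the same order, from 70.1 to 72.1%, 71.1 to 73.3%, 69.9 to 72.9% and 70.9 to 72.9% for endothelium, from 64.5 to 65.9%, 64.3 to 65.8%, 64.9 to 66.6% and 64.3 to 65.4% for mesenchyme, and from 59.9 to 61.2%, 60.0 to 61.4%, 60.1 to 62.1% and 59.4 to 61.4% for airway epithelium. These are levels of methylation, so they do not say whether a marker was expressed.

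For the windows over a gene start of the marker lists, the shares over all windows that hold the start of their own gene are 19.3% lower and 9.41% higher in Sham and 31.5% lower and 6.55% higher in PM, and no test was run on these small counts. In Sham and PM respectively, 4 and 4 of 5 such windows fell among eosinophil markers, 4 and 4 of 5 among B cell markers, 5 and 6 of 8 among myeloid markers, 4 and 5 of 6 among pan-leucocyte markers and 3 and 2 of 6 among T cell markers. Among alveolar epithelial markers 0 and 1 of 6 fell, among airway epithelial markers 0 and 0 of 4, among endothelial markers 2 and 2 of 5, and among mesenchymal markers 0 and 0 of 6. Rises were found in 4 and 4 of the 6 mesenchymal, 2 and 2 of the 5 endothelial, 2 and 1 of the 6 alveolar epithelial and 1 and 0 of the 6 pan-leucocyte windows, and in 0 of the other lists' windows.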

How the data were processed

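WGMS was performed by the authors on lung DNA. Reads were trimmed by the authors with Trim Galore, mapped to GRCm38 and called with the DRAGEN methylation pipeline, and the deposited percent methylation is the authors' average per window over a minimum of informative CpGs. Replicates were not pooled, no normalisation of the percentages is described, and coverage is not in the table used here, so no counting error was computed.

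Of 260686 windows, 259167 with at least 3 values in every group were tested (1519 were removed). The value fitted was log2 of the methylated percentage plus 1 over the unmethylated percentage plus 1, and limma (version 3.58.1, R 4.3.3) was fitted to all 29 libraries with 4 groups, and p-values (2-sided) were adjusted over all of these windows by Benjamini-Hochberg. The study's test needs read counts and its stricter p threshold serves as an alternative. The code was tested on simulated data. Windows were annotated with GENCODE M21 on GRCm38, in Python 3.11.15 with pandas 2.3.3 and pysam 0.24.0, and plotted with matplotlib 3.10.9.

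Named windows were the member DMRs, the window at or nearest each gene start, the window with the largest mean OVA difference of each gene, the smallest p of each maternal contrast and the interaction, and the 2 most changed windows of each pathway list. Other windows given with values were picked after these were seen, namely Itgal windows 6 and 11, Itgax window 5, Itgad window 5, Itga4 windows 2, 4, 9 and 10, Itgae windows 10 to 12, Itgb2 window 2, Itgb7 windows 2, 3 and 6, the windows over the Itgad and Itgae starts, and those of Ptprc, Laptm5, Spi1, Pecam1 and Cdh5. The members and lists were chosen with earlier results of these data known. Same-numbered libraries did not deviate together (Pearson's r from -0.0705 to 0.13 over 42 pairs, 3 of them over 0.1), so the numbers were not used as pairs. These are the replicate numbers of the sample titles, which the replicate block used as well. In both OVA groups some of them differ from the numbers in the library names, so a pairing carried by the library names was not checked. Alternatives covered the offset, the scale, centring, missing values, the groups fitted, the replicate block, thresholds, membership and leaving out each library.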

Additional observations from a re-analysis of the deposited data

Results flagged for a closer look

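In 4 of the 56 groups of libraries tested over the 14 named windows, 1 library lay far from the others by Dixon's criterion, which chance alone gives in about 1 in 20 groups. In Itgam window 8, Sham replicate 6 was at 78.02% against 80.5 to 82.18% in the other Sham libraries, PM replicate 3 at 85.69% against 81.74 to 82.84%, and PM-OVA replicate 1 at 87.75% against 83.0 to 84.85%. This is the window with the smallest p for the interaction and for PM against Sham. In Itga4 window 3, Sham-OVA replicate 7 was at 67.24% against 60.4 to 63.09% in the other Sham-OVA libraries.

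The window that holds the Itgad start but is named for Gm17831 is not a member, and it rose after OVA by 5.99 points in Sham and 4.45 points in PM, in contrast to the first window named for Itgad. It ranged from 76.66 to 80.35% in Sham and 79.54 to 87.62% in Sham-OVA, which overlap, and from 75.98 to 81.07% in PM and 81.59 to 85.27% in PM-OVA, which do not.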

How the results depend on the processing

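Of the 25 single-window results past the threshold, all kept their direction and an adjusted p under 0.05 with an offset of 5 points, on untransformed percentages, with each library centred, over windows with a value in all libraries, with the groups of the contrast only, with the replicate block and without each library in turn. At the study's adjusted p of 0.000001, 12 of the 25 passed, and the counts became 5 windows lower and 0 higher in Sham, and 7 lower and 0 higher in PM. The 4 DMRs of each arm stayed at 4 under that threshold. Centring gave 26 windows higher in PM, against 18.9% of all windows. It gave 3 DMRs lower in each arm, against 0.259% of all windows in Sham and 0.221% in PM. With a minimum difference of 5 points, there were 10 DMRs lower and 5 higher in Sham, and 11 lower and 4 higher in PM. Among the alternatives, shares of all tested windows were worked out for centring only. The counts under the other alternatives, the stricter p threshold included, therefore describe the members alone. Leaving out 1 library gave 16 to 21 windows lower and 19 to 20 higher in Sham, 19 to 22 lower and 13 to 17 higher in PM, 3 to 5 DMRs lower in Sham and 3 to 4 in PM. DMRs higher in Sham went from 0 to 1 without Sham replicate 3, where Itgb7 window 4 reached 10.01 points. With the replicate block, 17 windows were lower and 19 higher in Sham, and 21 lower and 13 higher in PM, with 4 DMRs lower in each arm. The maternal contrasts and the interaction stayed at 0 under the alternatives run for them. Without coverage, the error of a single percentage could not be assessed.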
